A study of Homo sapiens with 18 samples.

Results

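The genes described here belong to the solute carrier families that move bicarbonate, chloride, sulfate, protons, sodium, calcium and phosphate across membranes (SLC4, SLC8, SLC9, SLC12, SLC13, SLC20, SLC24, SLC26 and SLC34). The families were chosen with earlier results of these data known, and their members by name, as every probe of the unnormalized table whose gene name starts with 1 of these family names and a member number. The rule took 101 of the 48803 probes on the array, which stand for 63 of the 38275 gene names in the table. Of the 63, 3 match by name only and are not transporters: SLC9A3R1 (NHERF1) and SLC9A3R2 (NHERF2), scaffold proteins that bind exchangers, and SLC4A1AP, an adaptor protein named for the anion exchanger it was found with. They are counted as members and described apart.

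The cells were HK-2, a human proximal tubule line made immortal in culture, and their RNA was read on Illumina HumanWG-6 bead arrays, with 1 array for each of 18 flasks in 6 groups of 3. Cells received 2 ng/mL TGF-beta1 (transforming growth factor beta 1) over 48 h, the same dose plus 5 nM C-peptide over 48 h, or 5 nM C-peptide by itself, over 48 h in 1 group and 18 h in another. Cells given neither agent, over 48 h or 18 h, were the controls. All flasks held cells of passages 18 to 30 that had spent 48 h in 5 mM glucose medium and an overnight fast from serum, and both incubation times ended together. C-peptide is the connecting piece cut out of proinsulin, and TGF-beta1 is a growth factor that drives scarring and loss of epithelial character in the kidney. The descriptions of TGF-beta1 replicates 2 and 3 number the growth factor differently, and these flasks were grouped by their titles. A flask gives the mean over its cells, so fewer cells that carry an RNA and less of it per cell cannot be told apart.

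In the kidney, the proximal tubule takes back most filtered bicarbonate, phosphate and sodium. Sodium-proton exchangers (SLC9) at the apical membrane secrete acid, carbonic anhydrases turn the filtered bicarbonate into carbon dioxide and back, and the cotransporter SLC4A4 (NBCe1) carries bicarbonate out across the basolateral membrane. SLC34 cotransporters take up filtered phosphate, SLC20 proteins take up phosphate in nearly all cells, and SLC12 cotransporters set cell volume and chloride.

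Promoters are shown for the detected member that changed most with TGF-beta1, SLC4A4, and for the pair of transporters that rose with the smallest adjusted p, SLC26A2 and SLC20A1. Each is the RefSeq promoter of the first start listed for the gene on GRCh38.p14, 250 bases before to 50 bases after the start, 5′ to 3′ on the plus strand. Capitals mark matches to motifs of factors that act downstream of TGF-beta1, searched on both strands.
SLC4A4, chr4:71062410-71062709: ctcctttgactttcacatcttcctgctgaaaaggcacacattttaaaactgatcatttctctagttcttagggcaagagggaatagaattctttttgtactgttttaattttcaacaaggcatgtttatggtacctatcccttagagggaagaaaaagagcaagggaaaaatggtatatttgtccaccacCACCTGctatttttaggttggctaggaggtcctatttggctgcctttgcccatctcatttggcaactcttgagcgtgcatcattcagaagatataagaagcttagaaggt
SLC26A2, chr5:149960508-149960807: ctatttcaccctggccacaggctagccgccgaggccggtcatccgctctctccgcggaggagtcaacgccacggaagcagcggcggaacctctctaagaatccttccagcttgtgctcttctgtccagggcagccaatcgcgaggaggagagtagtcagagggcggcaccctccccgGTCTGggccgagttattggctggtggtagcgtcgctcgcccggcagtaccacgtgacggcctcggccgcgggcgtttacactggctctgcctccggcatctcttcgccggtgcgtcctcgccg
SLC20A1, chr2:112645689-112645988: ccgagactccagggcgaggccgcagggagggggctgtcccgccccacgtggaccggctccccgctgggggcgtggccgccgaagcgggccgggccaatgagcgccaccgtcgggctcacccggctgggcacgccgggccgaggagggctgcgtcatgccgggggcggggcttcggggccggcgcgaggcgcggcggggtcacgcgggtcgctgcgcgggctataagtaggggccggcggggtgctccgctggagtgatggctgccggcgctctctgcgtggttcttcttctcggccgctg

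The SLC4A4 window had a GC content of 39.7% and 1 CpG, and it held CACCTG, the E-box of the SNAI and ZEB repressors, at bases 191 to 196. The SLC26A2 window had 66.0% GC and 31 CpGs and held the SMAD box CAGAC on the minus strand, printed as GTCTG at bases 178 to 182. The SLC20A1 window had 77.7% GC and 42 CpGs, and none of the 3 motifs was in it. The table lists 5 starts for SLC4A4, with 39.7% to 79.0% GC, and which of them these cells use was not measured. The E-box is in the window of 1 of the 5 starts, the one shown; among the other 4, 1 holds a SMAD box and 2 an AP-1 site.

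Of the 63 members, 50 had a promoter in the table, 22 of them genes detected in these cells and 28 not. The SMAD box was in 36.4% of the windows of detected members, in 46.4% of the other members' and in 44.95% of all 27305 promoters. The E-box was in 27.3%, 35.7% and 20.6% in the same order, and the AP-1 site TGANTCA in 4.55%, 14.3% and 7.76%. Median GC content was 66.8% for detected members, 57.3% for the other members and 58.3% for all promoters. A match is a string of letters and not a bound site.

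Of the 63 genes, 28 were detected (detection p under 0.01 on 3 or more arrays), 19 of these on all 18 arrays, and 35 were detected on 0 arrays. That is 44.4% of the members, against 32.7% of all genes on the array. At a detection p under 0.05 the count was 38. Of the 28 genes, 9 were detected on fewer than 18 arrays, and 20 were detected on 2 or more arrays of every group.

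Both SLC20 genes were detected on all 18 arrays, and 0 of the 3 SLC34 genes was detected, which leaves SLC20A1 and SLC20A2 as the phosphate cotransporters with a signal here. In the SLC4 family 6 of 11 genes were detected: the sodium-bicarbonate cotransporters SLC4A4, SLC4A5 and SLC4A7, the anion exchanger SLC4A2, SLC4A11, which is known from the corneal endothelium, and the adaptor SLC4A1AP. In the SLC26 family 3 of 11 were detected, the sulfate carriers SLC26A2 and SLC26A11 and the chloride, oxalate and bicarbonate exchanger SLC26A6.

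Of the 13 SLC9 genes, 7 were detected, among them SLC9A4, SLC9A5, the Golgi exchanger SLC9A7, SLC9A8, and the scaffold NHERF1. SLC9A4 and SLC9A7 were on 8 arrays each and SLC9A5 on 4. SLC9A3, the main apical exchanger of the proximal tubule, was detected on 0 arrays at a detection p under 0.01 and on 10 arrays at a p under 0.05. Of 9 SLC12 genes, 5 were detected: the sodium-potassium-chloride cotransporter SLC12A2, the potassium-chloride cotransporters SLC12A4 and SLC12A5, SLC12A8 and SLC12A9. SLC12A1 and SLC12A3, the diuretic targets of the loop of Henle and distal tubule, were on 0 arrays. SLC13A3, a basolateral dicarboxylate carrier, was the only detected gene of 5 in its family, on 13 arrays. Sodium-calcium exchange was represented by SLC8A2 and SLC8A3, on 4 arrays each, by SLC24A1, and by SLC8B1 (SLC24A6 on the array), the mitochondrial sodium-calcium exchanger.

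**Figure D1:**
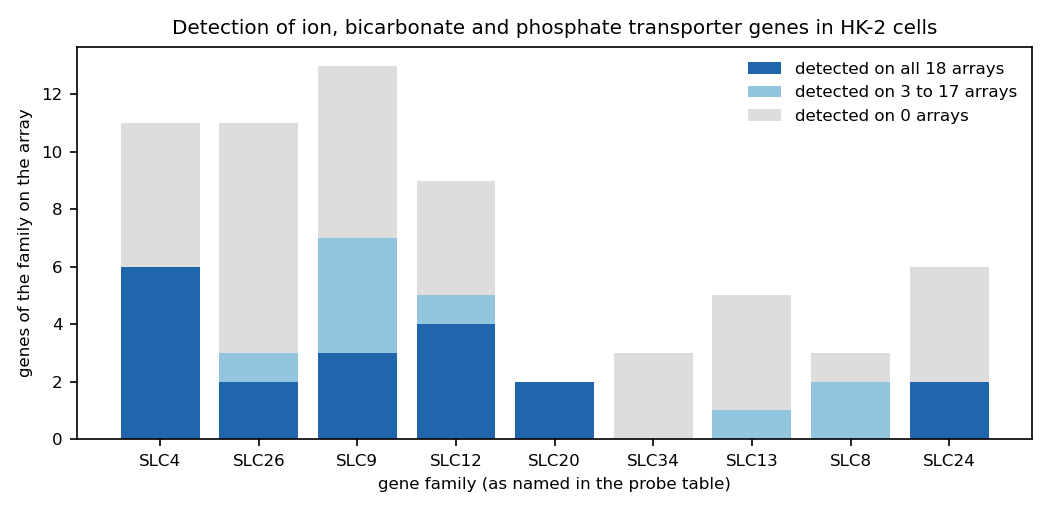
Number of genes of each family on the array, split by the number of arrays on which the gene was detected (p under 0.01). Both SLC20 genes were on all 18 arrays and the 3 SLC34 genes on 0; the SLC9 bar includes NHERF1 and NHERF2 and the SLC4 bar SLC4A1AP.

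The arrays had a mean signal of 215.9 to 343.7 intensity units, and 14580 to 15818 probes were detected on each. Of 12 proximal tubule markers, 3 were detected, GGT1 and PAX8 among them, and defining markers such as AQP1, LRP2, CUBN and ANPEP were on 0 arrays. All 5 epithelial markers were detected, with 0 of 6 markers of the loop of Henle and distal tubule, 1 of 8 of the collecting duct, 4 of 5 of fibroblasts, without COL1A2, 1 of 3 of endothelium and 1 of 3 of leukocytes. The summed intensity of the epithelial markers was 10917.5 to 11693.2 with TGF-beta1 and 18675.6 to 19685.6 in the 48 h controls. That of the 3 proximal tubule markers was 1361.99 to 1793.45 with TGF-beta1 and 2056.39 to 2488.68 in these controls. Within these lists CDH1 (E-cadherin), KRT19 and EPCAM fell by 3.06, 1.21 and 1.08, and PAX8 fell by 1.37. CDH1 was detected on 1 of 3 TGF-beta1 arrays, so the size of its fall is limited by the background. KRT8 rose by 0.38 (adjusted p = 0.00474), and KRT18 and GGT1 differed by -0.06 and -0.23 (adjusted p = 0.741 and 0.104). The summed fibroblast markers were 1966.42 to 2210.23 with TGF-beta1 and 1866.32 to 2018.87 in the controls. Of these, DCN rose by 0.76 (adjusted p = 0.0103) and PDGFRB, on 0 control arrays, was at least 1.497-fold higher (adjusted p = 1.09e-06). PDGFRB entered the test only through arrays with TGF-beta1. DCN, detected on 1 of 3 of the 48 h control arrays, would not have entered it without them either. LUM and PDGFRA differed by 0.09 and 0.11 (adjusted p = 0.7 and 0.483). The endothelial marker PECAM1, also on 0 of the 48 h control arrays, was at least 1.17-fold higher (adjusted p = 0.00269). PECAM1 too would not have entered the test without the arrays with TGF-beta1. The part of this shift in the results below was not tested. The headers number the arrays consecutively and name no chip. In runs of 6, the number of arrays on a chip of this type, that order puts TGF-beta1 with the 48 h controls, both agents with C-peptide for 48 h, and the 18 h groups together. Comparisons of TGF-beta1 and of C-peptide at 18 h lie within such a run, whereas C-peptide at 48 h and the run of arrays cannot be told apart. Whether a run is a chip is not given in the sources used here. Replicate 3 of C-peptide for 18 h stood apart from its replicates, with a root mean square distance of 0.391 on the log2 scale over all genes, against at most 0.246 for the other arrays.

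TGF-beta1 for 48 h lowered the bicarbonate cotransporter SLC4A4, the phosphate cotransporter SLC20A2 and SLC4A11 by more than 1 on the log2 scale. It raised the sulfate carrier SLC26A2, the phosphate cotransporter SLC20A1, the anion exchanger SLC4A2 and the bicarbonate cotransporter SLC4A7. The SLC4A2 call was lost when certain single arrays were left out, and SLC4A2 did not pass with C-peptide present. In all, 18 of the 28 detected members passed an adjusted p of 0.05 in limma's test of TGF-beta1 against the 48 h control, 7 higher and 11 lower. Among all 12484 genes tested the share was 45.1%, with 21.9% higher and 23.2% lower. The members' shares were 64.3% in all, 25% higher and 39.3% lower, and their median log2 change was 0.03, against -0.01 over all genes. With median scaling in place of quantile normalization, 4 were higher and 10 lower. Among the 25 members detected on at least 1 array of each of these groups, 15 passed, 7 higher and 8 lower, against 44% of 11718 genes so detected. Below, values are normalized log2 intensities in replicate order, differences are on the log2 scale, errors are standard errors (SE), and adjusted p is from limma with the Benjamini-Hochberg method over all genes.

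SLC4A4 had a log2 intensity of 7.87, 7.85 and 7.76 with TGF-beta1, against 9.43, 9.39 and 9.54 in the 48 h controls. It had 7.67, 7.84 and 7.66 with both agents, against 9.15, 9.34 and 9.39 with C-peptide for 48 h. At 18 h, SLC4A4 had 9.67, 9.48 and 8.81 with C-peptide, against 8.84, 9.05 and 9.24 in controls. All 6 arrays with TGF-beta1 lay below all 12 arrays without it, and the 18 h groups overlapped. The fall was -1.63 (SE 0.15, adjusted p = 2.78e-08), a fold of 0.324, and with C-peptide present it was -1.57 (SE 0.15, adjusted p = 5.11e-08). A second SLC4A4 probe fell by 1.13 with TGF-beta1 alone and by 1.41 with C-peptide present.

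SLC4A11 had 6.61, 6.83 and 6.48 with TGF-beta1, against 7.91, 7.78 and 7.79 in the 48 h controls. Under both agents, SLC4A11 had 6.31, 6.18 and 6.61, against 7.14, 7.50 and 7.35 with C-peptide. At 18 h, SLC4A11 had 7.62, 7.61 and 7.27 with C-peptide, against 7.15, 7.42 and 7.56 in controls. The 48 h groups with TGF-beta1 lay below those without it, and the 3 arrays of C-peptide alone for 48 h lay below their controls. The fall with TGF-beta1 was -1.18 (SE 0.14, adjusted p = 6.94e-07) and with C-peptide present -0.96 (SE 0.14, adjusted p = 1.05e-05).

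SLC4A2, an exchanger of chloride for bicarbonate, had 8.92, 9.40 and 9.32 with TGF-beta1, against 8.61, 8.33 and 8.91 in the 48 h controls. Under both agents, SLC4A2 had 8.96, 8.93 and 9.04, against 8.52, 8.66 and 8.67 with C-peptide. At 18 h, SLC4A2 had 8.54, 8.69 and 9.15 with C-peptide, against 8.43, 7.95 and 8.72 in controls. The groups did not overlap at 48 h, by a margin of 0.01 for TGF-beta1 alone. The rise with TGF-beta1 was 0.60 (SE 0.18, adjusted p = 0.00984), and it was lost without TGF-beta1 replicate 2 or control replicate 2 (highest adjusted p = 0.0675). With C-peptide present the difference was 0.37 (SE 0.18, adjusted p = 0.105). SLC4A7, an electroneutral bicarbonate cotransporter, rose by 0.56 (SE 0.10, adjusted p = 0.000174) and with C-peptide present by 0.44 (adjusted p = 0.00179). Its second probe rose by 0.72 and 0.70. SLC4A5, an electrogenic bicarbonate cotransporter, passed only beside C-peptide, with 0.31 (adjusted p = 0.0236) and a loss of the call without 4 of the 6 arrays in turn, up to an adjusted p of 0.104 (both agents or C-peptide, replicates 1 and 2 of each), and under median scaling (adjusted p = 0.378). The change without C-peptide was 0.18 (adjusted p = 0.174), and the difference between the settings was 0.13 (adjusted p = 0.999).

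SLC26A2, the sulfate carrier whose loss causes skeletal dysplasia, rose by 0.89 (SE 0.12, adjusted p = 6.34e-06), a fold of 1.85, and with C-peptide present by 0.90 (SE 0.12, adjusted p = 5.6e-06). SLC26A6, an apical exchanger of chloride for oxalate and bicarbonate, had 7.60, 7.43 and 7.38 with TGF-beta1, against 7.25, 7.33 and 6.86 in the 48 h controls. Under both agents, SLC26A6 had 7.57, 7.37 and 7.30, against 6.74, 6.99 and 6.88 with C-peptide. At 18 h, SLC26A6 had 7.18, 7.05 and 7.64 with C-peptide, against 7.23, 7.24 and 7.27 in controls. The groups did not overlap in either TGF-beta1 comparison, and those at 18 h overlapped. The difference was 0.32 with TGF-beta1 (SE 0.14, adjusted p = 0.0684) and 0.54 with C-peptide present (SE 0.14, adjusted p = 0.00377), or 0.38 under median scaling (adjusted p = 0.051). A second SLC26A6 probe, detected on 5 arrays, gave 0.53 and 0.11, so the probes disagreed on which comparison passed. The sulfate transporter SLC26A11 fell by 0.75 (SE 0.24, adjusted p = 0.017). Without TGF-beta1 replicate 3, the only array of the 6 on which it was not detected, or control replicate 2, the call was lost (highest adjusted p = 0.144).

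Among the sodium-proton exchangers, 1 of 7 rose and 1 fell with TGF-beta1. SLC9A8, an exchanger of the proximal tubule's apical membrane and of the Golgi, had 5.65, 5.93 and 5.71 with TGF-beta1, against 6.50, 6.51 and 6.18 in the 48 h controls. Under both agents, SLC9A8 had 5.21, 5.36 and 5.42, against 5.85, 5.87 and 5.91 with C-peptide. At 18 h, SLC9A8 had 6.25, 6.37 and 6.40 with C-peptide, against 5.75, 5.72 and 6.20 in controls. None of these 3 pairs of groups overlapped, and with both agents the gene was detected on 1 of 3 arrays. The fall with TGF-beta1 was -0.63 (SE 0.13, adjusted p = 0.000538) and with C-peptide present -0.54 (SE 0.13, adjusted p = 0.00215).

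SLC9A7, of the trans-Golgi network and detected on 8 of 18 arrays, rose by 0.30 (adjusted p = 0.0395). That call was lost without TGF-beta1 replicate 1 or 2 or any control array (highest adjusted p = 0.156) and under median scaling (adjusted p = 0.128).

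Of the 5 detected SLC12 genes, 1 rose and 2 fell with TGF-beta1. SLC12A2, the cotransporter that loads cells with chloride, had 7.65, 7.56 and 7.71 with TGF-beta1, against 7.57, 7.64 and 7.37 in the 48 h controls. Under both agents, SLC12A2 had 8.02, 8.03 and 8.01, against 7.77, 8.15 and 7.85 with C-peptide. At 18 h, SLC12A2 had 7.51, 7.84 and 7.96 with C-peptide, against 7.66, 7.66 and 7.68 in controls. Each of these pairs overlapped. SLC12A4, which lets potassium and chloride out of swollen cells, had 6.20, 6.29 and 6.08 with TGF-beta1, against 6.36, 5.92 and 6.34 in the 48 h controls. Under both agents, SLC12A4 had 5.91, 5.98 and 6.04, against 5.73, 6.14 and 6.27 with C-peptide. At 18 h, SLC12A4 had 6.05, 6.59 and 5.96 with C-peptide, against 6.34, 6.11 and 6.16 in controls. These pairs overlapped too, with a TGF-beta1 difference of -0.02 (SE 0.16, adjusted p = 0.937), beside 0.11 for SLC12A2 (SE 0.12, adjusted p = 0.457). SLC12A8 rose by 0.39 (adjusted p = 0.0168), a call lost without TGF-beta1 replicate 1 or control replicate 3 (highest adjusted p = 0.13) and under median scaling (adjusted p = 0.0978). SLC12A9 fell by 0.42 (adjusted p = 0.0114), lost without TGF-beta1 replicate 3 or control replicate 2 (highest adjusted p = 0.0804). SLC12A5, the neuronal potassium-chloride cotransporter, was detected on 0 of 3 TGF-beta1 arrays and 2 of 3 control arrays and was at least 1.05-fold lower (adjusted p = 0.0246), lost without TGF-beta1 replicate 1 or control replicate 3 (highest adjusted p = 0.126). Such a bound sets the brighter group's mean against the lowest signal among probes above background, or the dim probe's own where that is higher.

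The pair of phosphate cotransporters moved in opposite directions with TGF-beta1. SLC20A1 (PiT-1) had 11.21, 11.45 and 11.28 with TGF-beta1, against 10.69, 10.70 and 10.78 in the 48 h controls. Under both agents, SLC20A1 had 11.004, 11.07 and 11.11, against 10.49, 10.54 and 10.50 with C-peptide. At 18 h, SLC20A1 had 10.60, 10.67 and 10.71 with C-peptide, against 10.41, 10.38 and 10.63 in controls. All 6 arrays with TGF-beta1 lay above all 12 without it, and the 18 h groups overlapped. The rise was 0.59 (SE 0.08, adjusted p = 4.21e-06) and with C-peptide present 0.56 (SE 0.08, adjusted p = 9.34e-06), a fold of 1.504 for TGF-beta1 alone. SLC20A2 (PiT-2) had 6.85, 6.34 and 6.23 with TGF-beta1, against 8.04, 7.97 and 7.48 in the 48 h controls. Under both agents, SLC20A2 had 6.46, 6.34 and 6.44, against 7.23, 7.51 and 7.73 with C-peptide. At 18 h, SLC20A2 had 7.79, 7.78 and 7.24 with C-peptide, against 8.12, 7.79 and 7.89 in controls. All 6 arrays with TGF-beta1 lay below all 12 without it. The fall was -1.36 (SE 0.18, adjusted p = 3.39e-06), a fold of 0.390, and with C-peptide present -1.08 (SE 0.18, adjusted p = 5.68e-05).

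SLC13A3 had 5.63, 5.52 and 5.25 with TGF-beta1, against 5.35, 5.69 and 5.29 in the 48 h controls. Under both agents, SLC13A3 had 5.71, 5.57 and 5.85, against 5.36, 5.21 and 5.23 with C-peptide, where it was not well above background on any array. At 18 h, SLC13A3 had 5.56, 5.32 and 5.81 with C-peptide, against 5.48, 5.74 and 5.67 in controls. Only the groups of both agents and C-peptide did not overlap among these pairs. The level was at least 1.18-fold higher with both agents than with C-peptide (adjusted p = 0.0175). That call was lost without both-agents replicate 3 or C-peptide replicate 2 (highest adjusted p = 0.077) and under median scaling (adjusted p = 0.121).

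Of the calcium carriers, the mitochondrial exchanger SLC8B1 fell by 0.48 with TGF-beta1 (SE 0.13, adjusted p = 0.00483) and by 0.66 with C-peptide present (SE 0.13, adjusted p = 0.000314). SLC24A1, the sodium, calcium and potassium exchanger known from rod photoreceptors, fell by 0.25 (adjusted p = 0.0281). That call was lost without TGF-beta1 replicate 1 or 3 or control replicate 2 or 3 (highest adjusted p = 0.111) and under median scaling (adjusted p = 0.0614). SLC8A2 and SLC8A3, plasma membrane exchangers known from brain and muscle, passed lower in both settings, but were not well above background on any array with TGF-beta1, so no fold is given. With C-peptide present, SLC8A3 was not well above background in either group. The adjusted p was 0.00154 for SLC8A2 and 0.012 for SLC8A3 with TGF-beta1 alone, and 0.00207 and 0.0163 with C-peptide present. Both genes entered the test through arrays without TGF-beta1 only (4 each), so they are left out of the counts over members detected in both groups. The SLC8A3 call was lost without TGF-beta1 replicate 3 (adjusted p = 0.0773) and, with C-peptide present, without both-agents replicate 2 or C-peptide replicate 3 (highest adjusted p = 0.117). Of the adaptors, SLC4A1AP rose by 0.32 with TGF-beta1 (adjusted p = 0.0302), lost without TGF-beta1 replicate 2 or 3 or control replicate 1 or 3 (highest adjusted p = 0.146) and under median scaling (adjusted p = 0.135), and NHERF1 differed by 0.09 (SE 0.13, adjusted p = 0.611).

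**Figure D2:**
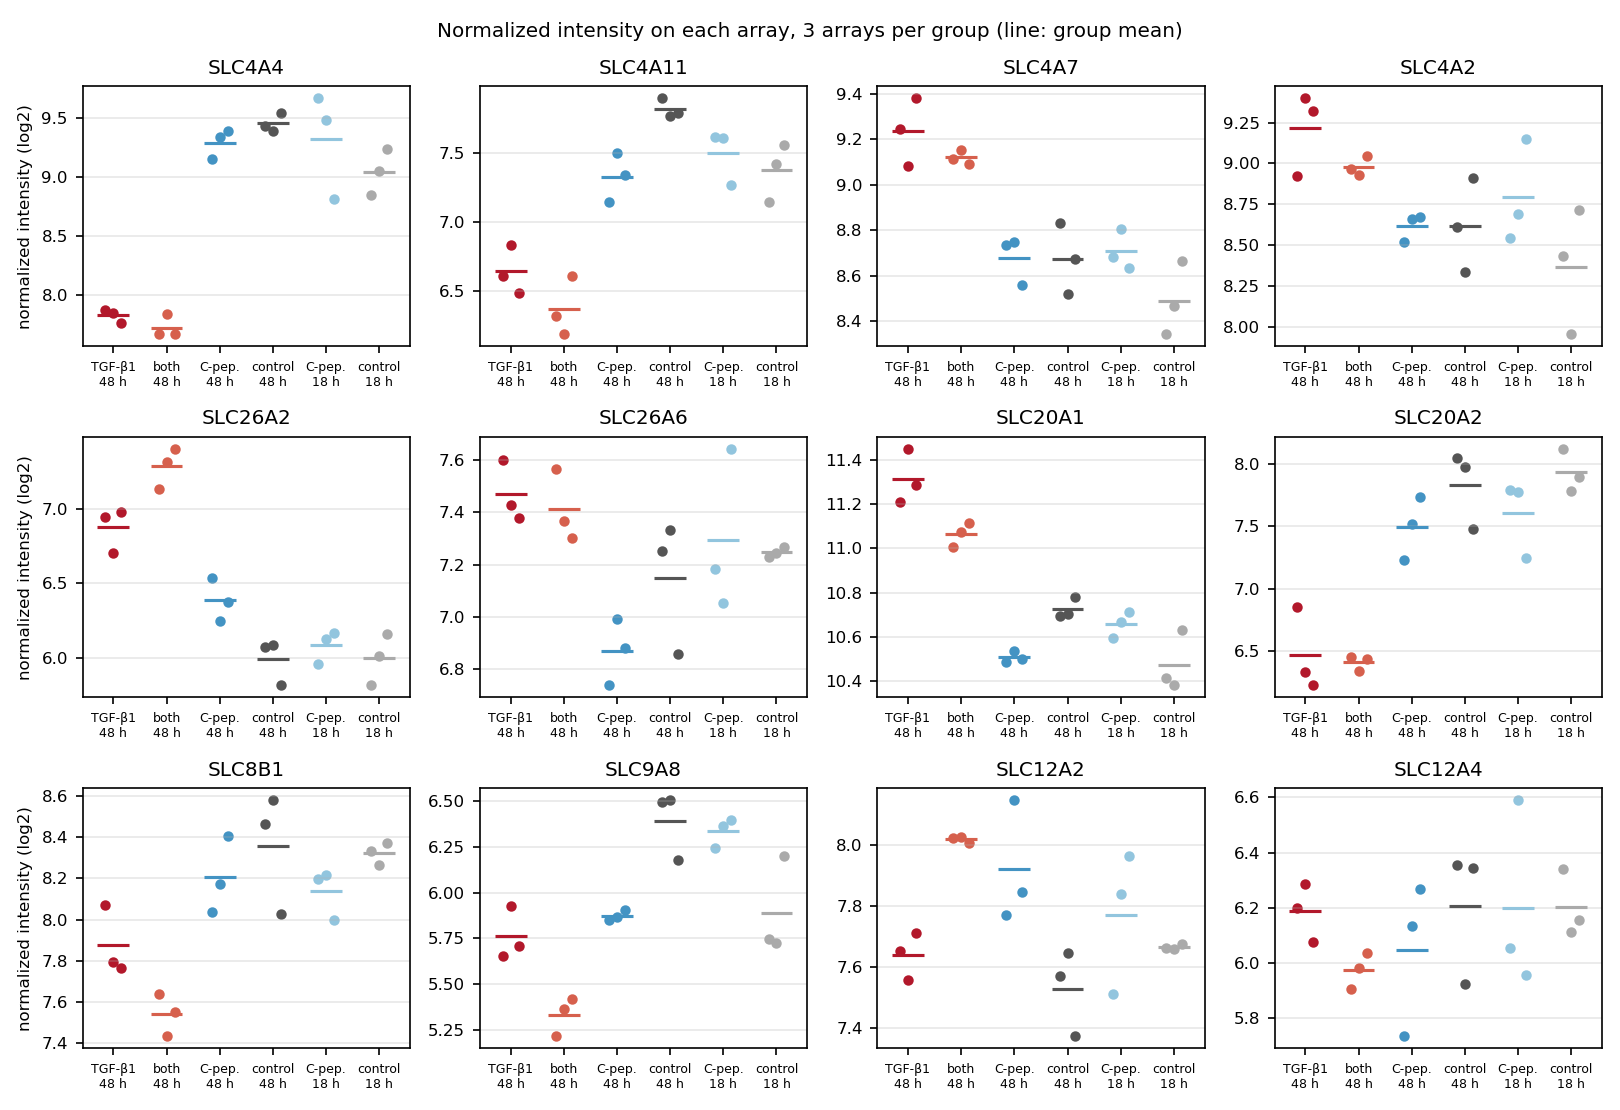
Normalized log2 intensity of 12 members on each array, with 3 points and a line at the mean for each of the 6 groups; each panel has its own axis. SLC4A4, SLC4A11 and SLC20A2 are lowest and SLC20A1 and SLC26A2 highest in the groups with TGF-beta1, while SLC12A2 overlaps within both TGF-beta1 pairs.

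In the presence of C-peptide, 13 of the 28 members passed for TGF-beta1 (both agents against C-peptide, 48 h), 6 higher and 7 lower, which is 46.4% against 43% of all genes tested. Over all genes 21.3% were higher and 21.7% lower, and the members' median change was 0.01, against 0.00 over all genes. Under median scaling 3 were higher and 7 lower. Of the 23 members detected in both of these groups, 10 passed, 5 in each direction, against 41.9% of 11681 genes so detected. No array is shared by the 2 TGF-beta1 comparisons. Of the members, 10 passed in both, 3 higher and 7 lower, and all 10 kept their direction: 55.6% of the 18 and 76.9% of the 13. The 7 lower include SLC8A2 and SLC8A3, which entered the test only through arrays without TGF-beta1. Over all genes, those called in both with the same direction were 78.6% and 82.5% of those called in each. The members that passed without C-peptide only were SLC4A2, SLC4A1AP, SLC9A7, SLC12A5, SLC12A8, SLC12A9, SLC24A1 and SLC26A11. Their adjusted p with C-peptide present was 0.105 to 0.942 in limma's test. The sign was the same in both comparisons for all 28 members and for 85.7% of all genes. The largest difference between them was 0.49, for SLC26A11 (SE 0.35, adjusted p = 0.999), and the interaction of the agents passed for 0 of 28 members and for 0% of all genes, with 0 members and 388 genes at an unadjusted p under 0.05 in limma's test.

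**Figure D3:**
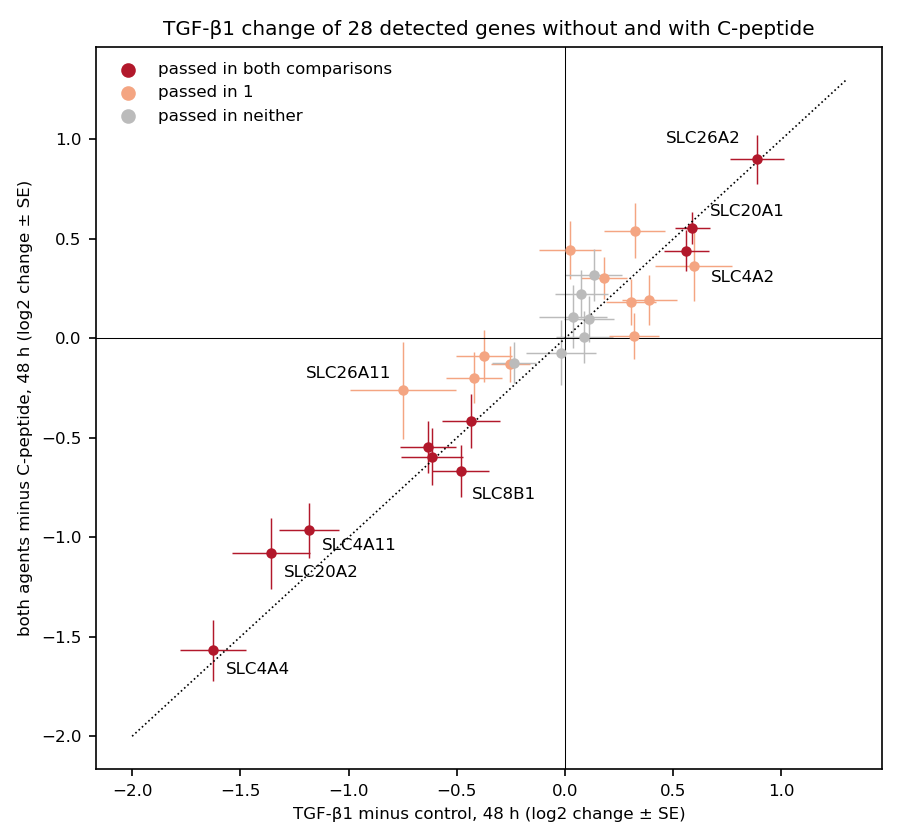
Log2 change of each of the 28 detected members with TGF-beta1 alone (horizontal, against control) and with C-peptide present (vertical, against C-peptide), with SEs; the dotted line marks equal change. SLC4A4, SLC20A2 and SLC4A11 lie at the lower left and SLC26A2 at the upper right.

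Genes that act with these transporters were taken as a set of 37, of which 23 were measured. With TGF-beta1, 4 rose, 13 fell and 6 did not pass, with a median of -0.36, against -0.01 over all genes, of which 21.9% were called higher and 23.2% lower. With C-peptide present, 4 rose, 12 fell and 7 did not pass, against 21.3% and 21.7% of all genes. The set was chosen with earlier results of these data known. All 3 measured carbonic anhydrases fell: CA11, a family member without enzyme activity, by 1.08 (SE 0.18, adjusted p = 4.29e-05), CA13 by 0.53 and CA2, the main cytosolic enzyme of the tubule, by 0.40 (adjusted p = 0.0177). Of 4 exchanger partners, 3 fell. PDZK1, a scaffold of apical transporters, fell by 2.06 (SE 0.22, adjusted p = 1.55e-07), ezrin (EZR) by 0.63 and AHCYL1, which activates SLC4A4, by 0.35, while TESC differed by 0.28 (adjusted p = 0.256).

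Among 6 kinases and ligases that act on cotransporters, SGK1 rose by 1.01 (SE 0.22, adjusted p = 0.000713), and NEDD4L, a ubiquitin ligase that SGK1 inhibits, fell by 1.87 (SE 0.23, adjusted p = 1.5e-06). STK39, the kinase that switches SLC12A2 on, fell by 0.36. Of the 5 pump genes, 2 rose and 2 fell. The sodium pump subunit ATP1B3 rose by 0.41, and its relative ATP1B1 and the calcium pump ATP2B4 fell by 0.79 and 0.56. Of 5 phosphate genes, XPR1, the phosphate exporter, rose by 0.62 (adjusted p = 9.45e-05). STC2, a secreted glycoprotein hormone of the stanniocalcin family, fell by 1.82 (SE 0.12, adjusted p = 1.27e-10), and KL, the FGF23 coreceptor klotho, by 0.49. The parathyroid hormone receptor PTH1R, not well above background on any TGF-beta1 array, was at least 1.20-fold lower (adjusted p = 1.6e-05). PTH1R entered the test only through arrays without TGF-beta1 and is counted with the partner genes that fell in both settings. FGFR1 differed by 0.34 (adjusted p = 0.19).

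**Figure D4:**
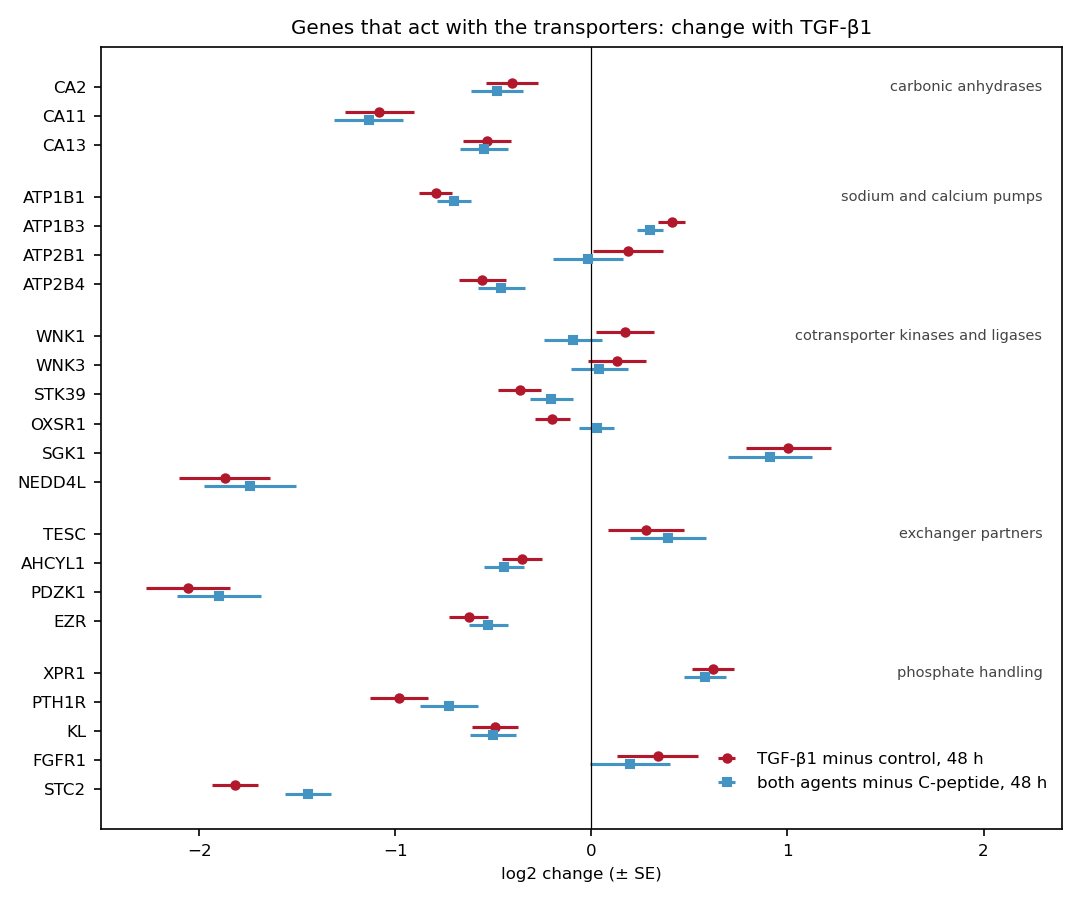
Log2 change of 22 of the 23 measured partner genes with TGF-beta1 alone (circles) and with C-peptide present (squares), with SEs, grouped by role. PDZK1, NEDD4L and STC2 lie farthest to the left and SGK1 farthest to the right; the PTH1R points are fitted values of a gene below background with TGF-beta1.

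With C-peptide alone for 48 h, 3 members were lower than in the controls and 0 higher, a share of 10.7%, against 5.33% of all genes tested (3.82% higher and 1.51% lower). The members' median change was -0.16, against -0.04 over all genes. SLC9A8 and SLC4A11 are described here, with their values on each array given above. SLC9A8 fell by 0.52 (SE 0.13, adjusted p = 0.0247) and SLC4A11 by 0.49 (SE 0.14, adjusted p = 0.0431). The 3 C-peptide arrays lay below the 3 controls for both. SLC12A2, with all C-peptide arrays above the controls, differed by 0.39 (SE 0.12, adjusted p = 0.0507), and it passed under 4 of 8 other settings, with an adjusted p of 0.000402 to 0.305 over the 8, and without C-peptide replicate 3 (adjusted p = 0.0482). SLC26A2 had the largest rise of a member, 0.40, with all C-peptide arrays above the controls, and did not pass. SLC20A1 differed by -0.22 (adjusted p = 0.108) and SLC4A4 by -0.16 (SE 0.15, adjusted p = 0.557).

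The calls at 48 h were lost when single arrays were left out. Without C-peptide replicate 1 or control replicate 1 or 2, 0 members passed, and without C-peptide replicate 2 or control replicate 3, 1 did. The highest adjusted p was 0.111 for SLC9A8 and 0.248 for SLC4A11. In the authors' normalized values SLC4A11 had an adjusted p of 0.0525. Its call was also lost with all probes kept (adjusted p = 0.0656) and with the replicate number in the model (adjusted p = 0.0535), and held under 5 other settings. The noise of undetected probes was 5.15 to 5.47 intensity units (SD) on the C-peptide arrays and 6.23 to 6.69 on the controls, and its part in the result was not tested.

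At 18 h, C-peptide changed 0 of 28 members in limma's test, against 2.29% of all genes (1.15% in each direction); 5 members had an unadjusted p under 0.05. SLC9A8 was 0.45 higher (SE 0.13, adjusted p = 0.0615). Without C-peptide replicate 3, the array that stood apart, 1 member passed, SLC4A4 with a change of 0.53 (adjusted p = 0.0304), while with all arrays SLC4A4 differed by 0.28 (SE 0.15, adjusted p = 0.262). Without C-peptide replicate 1, 3 members passed, and without control replicate 3, 5.

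Added to TGF-beta1, C-peptide changed 0 of 28 members in limma's test, against 2.15% of all genes (1.5% higher and 0.649% lower), with 7 members at an unadjusted p under 0.05. The lowest adjusted p was 0.0848, for SLC26A2, which was 0.41 higher (SE 0.12). SLC9A8 was -0.43 (SE 0.13, adjusted p = 0.0877) and SLC20A1 -0.25 (SE 0.08, adjusted p = 0.0998), and the SLC4A4 difference was -0.10 (SE 0.15, adjusted p = 0.757).

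**Figure D5:**
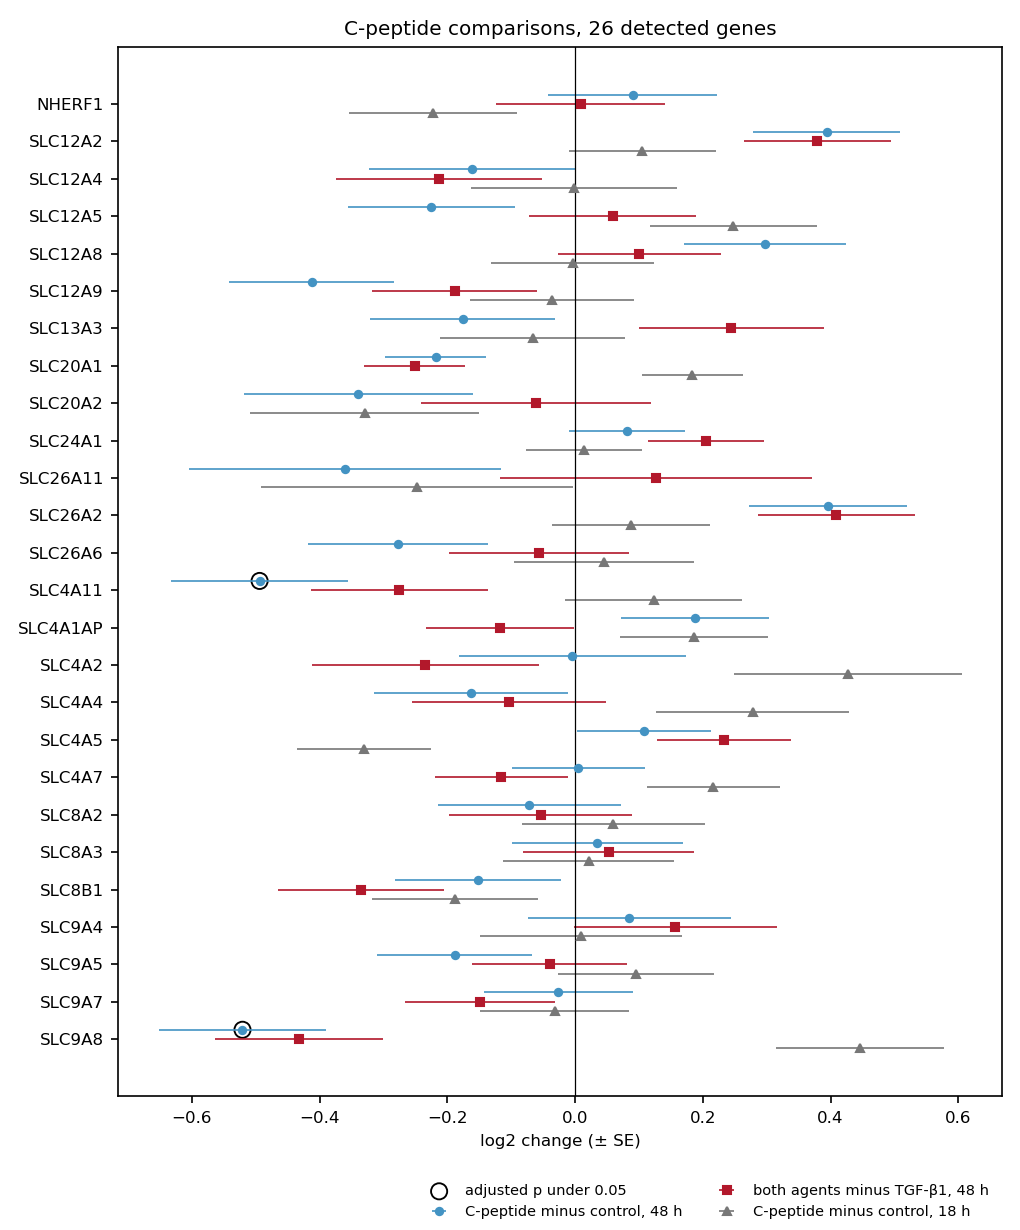
Log2 change with SE of 26 detected members in 3 C-peptide comparisons: against control at 48 h (circles), both agents against TGF-beta1 at 48 h (squares) and against control at 18 h (triangles). The ringed points, SLC4A11 and SLC9A8, passed an adjusted p of 0.05; for SLC9A8 the 18 h point lies right of zero and the 48 h points left of it.

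The C-peptide change at 48 h minus that at 18 h passed for 3 members, all lower at 48 h, with SLC9A8 and SLC20A1 among them, a share of 10.7%, against 8.92% of all genes (4.26% higher and 4.66% lower). The difference was -0.97 for SLC9A8 (SE 0.19, adjusted p = 0.0096) and -0.40 for SLC20A1 (SE 0.11, adjusted p = 0.0333). SLC9A8 passed without any 1 of the 12 arrays, with adjusted p between 0.00111 and 0.0415. SLC20A1 was lost without 8 of the 12 in turn, with adjusted p up to 0.0969. Only C-peptide 48 h replicate 3, C-peptide 18 h replicates 1 and 3 and 18 h control replicate 3 could be left out with SLC20A1 still passing. The count was 1 in the 5 fits without 1 of C-peptide 48 h replicate 1, 48 h control replicates 1 and 3 and 18 h control replicates 1 and 2, and 5 without C-peptide 18 h replicate 3 or 18 h control replicate 3.

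The controls themselves differed between the times for 0 of 28 members in limma's test, against 0.00801% of all genes, with 10 members at an unadjusted p under 0.05; without 18 h control replicate 3, 5 members passed. SLC9A8 was 0.51 higher in the 48 h controls (adjusted p = 0.0727). The controls of the 2 times lie in different runs of arrays, so time in culture and the run cannot be told apart for this comparison or for the time difference above.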

How the data were processed

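RNA of 18 HK-2 flasks, 3 in each of 6 groups, was hybridised to 1 array each, so replicates are separate flasks, per the labels' protocols. The unnormalized table holds mean bead intensity that the authors exported from GenomeStudio 1.1.1 without normalization, per the file headers, with 23.4% to 28.1% of probes on an array below 0. Detection was deposited as a fraction equal to 1 minus its p. The deposited bead numbers (21 to 72 per member probe) are another column of the same table. A second table holds the authors' normalized intensity, and BeadStudio stands beside GenomeStudio in the submitters' processing notes. The genome build is not given in the sources used here.

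Intensities were corrected, quantile-normalized and put on the log2 scale with neqc (offset 16) of limma 3.58.1 in R 4.3.3. The tests ran on probes with a detection p under 0.01 on at least 3 arrays, and on the brightest such probe of each gene, 12484 genes in all. Names were brought to current symbols through RefSeq (21919 probes had a current symbol, 3799 an older one with a single successor, 23085 kept their name). One model with 6 group means over 18 arrays (12 residual degrees of freedom, eBayes with trend) gave 8 comparisons. P-values are two-sided, adjusted over all genes by Benjamini-Hochberg, and called under 0.05. The script was tested on simulated data. The 3 arrays per group limit the precision.

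Values on every array are given for members changed by at least 1 (log2) with TGF-beta1, for those called for C-peptide or its time difference, and for a fixed set of proximal tubule transporters where detected. Other called members have their change, and partner genes are named with full values where they changed by at least 1. Some genes that these rules name or count are not reported here. The members and lists were chosen with earlier results of these data known. Alternatives changed the normalization, filter, probe rule, samples in the fit, array weights, replicate block and single replicates; the count over genes detected in both groups was added after seeing the data.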

Additional observations from a re-analysis of the deposited data

Results flagged for a closer look

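The C-peptide change differed between 48 h and 18 h for SLC9A8 and SLC20A1 in the limma test of that difference. SLC9A8 had a difference of -0.97 (SE 0.19, adjusted p = 0.0096), with C-peptide arrays below their controls at 48 h and above them at 18 h. SLC20A1 had -0.40 (SE 0.11, adjusted p = 0.0333). The SLC20A1 call was lost without 8 of the 12 arrays in turn (highest adjusted p = 0.0969). It was also lost with all probes kept (adjusted p = 0.0858) and with only the groups compared (adjusted p = 0.0714), and held under 6 other settings. The 48 h groups of this difference lie in different runs of arrays, and the part of the run was not tested.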

How the results depend on the processing

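Across 108 changes of single genes, 859 fits were run under other settings. Of these, 805 stayed on the same side of the threshold, 21 lost a call and 33 gained one. The 768 fits that left out 1 replicate gave 700, 59 and 9 in the same order. Direction turned in 0 fits where the main or the other fit passed. A turn where neither passed was counted as the same side. The number of the 28 members that passed kept within 1.5 times for both TGF-beta1 comparisons under every setting run. For C-peptide at 48 h it was 1 with the authors' normalized table, 7 with median scaling, 6 with only the groups compared and 9 with array weights. For C-peptide at 18 h it was 2 with median scaling and 3 with array weights. For both agents against TGF-beta1 it was 9 with median scaling, 1 of 63 with all probes kept, 3 with only the groups compared and 5 with array weights. For the time difference it was 11 with median scaling, 1 with only the groups compared and 8 with array weights. For the controls of the 2 times it was 15 with median scaling and 8 with array weights. Against quantile normalization, median scaling moved the median change of all genes by -0.17 for C-peptide at 48 h, 0.12 at 18 h, -0.11 for both agents against C-peptide, -0.22 for both agents against TGF-beta1, -0.30 for the time difference and 0.36 for the controls. The causes of these moves were not tested. Leaving out 1 replicate gave 13 to 16 members for TGF-beta1, 11 to 13 with C-peptide present, 0 to 4 and 0 to 5 for C-peptide at 48 h and 18 h, 0 to 0 for both agents against TGF-beta1 and for the interaction, 1 to 5 for the time difference and 0 to 5 for the controls.

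The replicate numbers did not pair the arrays: same-numbered arrays of the groups that enter a comparison together had correlations of -0.337 to 0.279 in their deviations from the group means, above 0.1 in 9 of 33 pairs. With the number as a replicate block, 19 members passed for TGF-beta1, 13 with C-peptide present, 1 for C-peptide at 48 h and 1 at 18 h. Each group lies within a run of arrays, so a block for the run was not fitted. Probes near background limit SLC8A2, SLC8A3, SLC12A5 and SLC13A3 to bounds or to no fold.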
